A study of Mus musculus with 21 samples.

Results

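The genes described here are the nuclear end of the canonical Wnt pathway: the 4 TCF/LEF transcription factors Tcf7, Tcf7l1, Tcf7l2 and Lef1, and Ctnnb1, which encodes beta-catenin. They were taken by symbol from the count tables, and all 5 were found among 31053 genes. The tables come from 21 RNA-seq libraries of the line E14Tg2a, which are male mouse embryonic stem cells of 129 background that carry a destabilised GFP at 1 allele of the REX1 locus. All cells were kept in the serum-free basal medium NDiff227 with CHIR99021 at 3 µM, a GSK3 inhibitor (CH), and PD0325901 at 1 µM, a MEK inhibitor (PD), for 1 week, and drugs were then added and withdrawn in turn at each passage, with LIF as the cytokine. The same protocol is given for every library, so the drugs present in each culture are known here only from the group names. The 7 groups of 3 libraries are 2i+LIF PO, 2i+LIF LP, CH+LIF LP, LIF LP, 2i+LIF HP, CH+LIF HP and LIF HP, where 2i in its usual sense is CH with PD. The design of the series names cells at passage zero and after 1 and 2 months of culture, but does not expand PO, LP and HP, which are used as given. All libraries come from 1 cell line, and nothing states that replicates were separate cultures, so p-values measure the spread between these libraries, which may be technical.

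In the canonical Wnt pathway, a destruction complex built on Axin and Apc marks beta-catenin for degradation through phosphorylation by GSK3. When GSK3 is inhibited, by Wnt or by a drug such as CHIR99021, beta-catenin accumulates, enters the nucleus and binds TCF/LEF proteins at target genes. Tcf7 and Lef1 encode factors known mainly as activators with beta-catenin. Tcf7l1 (TCF3 in older texts) encodes the main TCF of mouse embryonic stem cells and is known mainly as a repressor, including of pluripotency genes, whose repression beta-catenin relieves. Tcf7l2 can act either way, and beta-catenin is also a structural part of E-cadherin junctions. Lef1 is itself a known Wnt target in many tissues.

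Positions are from GENCODE M21 on GRCm38. Lef1 (ENSMUSG00000027985) lies on chromosome 3 from 131110471 to 131224356, plus strand, and Tcf7 (ENSMUSG00000000782) on chromosome 11 from 52252371 to 52283014, minus strand. Tcf7l1 (ENSMUSG00000055799) lies on chromosome 6 from 72626378 to 72789254, minus strand. Tcf7l2 (ENSMUSG00000024985) lies on chromosome 19 from 55741820 to 55933654, plus strand. Ctnnb1 (ENSMUSG00000006932) lies on chromosome 9 from 120929216 to 120960507, plus strand. The 3 genes Tcf7l1, Lef1 and Ctnnb1 share exon bases with a gene on the opposite strand (Gm15401, Gm43352 and Ulk4), and whether counting used strand is not given in the sources used here, so reads from each pair may not have been separated.

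Because Lef1 had the largest fold changes of the 5 genes, its promoter is shown, from RefSeq on GRCm38.p6, plus strand, chr3:131110047-131110326, as the 250 bases before the first RefSeq start and the 30 bases from it. This RefSeq start lies upstream of the GENCODE start given above (131110471). Capitals mark each match to CTTTG, the core of the TCF/LEF motif, or to its reverse complement CAAAG.
Lef1 promoter: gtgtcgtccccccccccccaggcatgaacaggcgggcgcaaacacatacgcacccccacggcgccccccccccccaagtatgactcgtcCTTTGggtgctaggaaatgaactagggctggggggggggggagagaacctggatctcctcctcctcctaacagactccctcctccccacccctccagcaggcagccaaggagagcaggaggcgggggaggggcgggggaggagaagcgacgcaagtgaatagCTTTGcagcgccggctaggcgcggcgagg
The whole 300-base window held 2 matches to CTTTG, and the other 3 RefSeq windows of Lef1, 1 of which overlaps it, held 2, 1 and 3. A match to CTTTG or CAAAG on either strand was present in 53.9% of 32851 promoter windows of this length, so such matches are common. The longer CTTTGAT (reverse complement ATCAAAG), which contains CTTTG, was found in none of the 11 windows of the 5 genes and in 3.73% of all windows. Of the other members, Tcf7l1 had 1 CTTTG match in its single window, both Tcf7l2 windows had 1, and the windows of Tcf7 and Ctnnb1 had none. These matches describe letters in the window and say nothing of binding.

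The libraries held between 1132126 and 3783043 counts in genes (median 1763531), so a count of 0 allows up to 3 counts, or 0.793 to 2.65 counts-per-million (CPM) before scaling, depending on the library. Levels are given as CPM after TMM scaling. There were 2 libraries unlike their replicates. In 2i+LIF PO replicate 1, mitochondrial genes took 39.1% of gene counts, against 1.25% to 9.84% in the 19 libraries other than these 2. In 2i+LIF LP replicate 1, the single gene Gm42418 took 31.7%, against 1.76% to 10.9%. The 3 PO libraries also carry another run number in their file names than the other 18, so the PO group and the run cannot be told apart. All 8 embryonic stem cell markers looked at, among them Pou5f1, Sox2 and Nanog, had counts in every group. In bulk libraries, fewer cells expressing a gene and less RNA per cell cannot be told apart.

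Lef1 was near zero everywhere except in 2i+LIF HP. In 2i+LIF HP the 3 libraries held 54, 92 and 31 Lef1 counts, or 25.1, 50.1 and 29.7 CPM (mean 35.0 ± 13.3 SD, n = 3). In 2i+LIF LP they held 4, 8 and 3 counts, or 2.81, 3.44 and 1.68 CPM. In 2i+LIF PO replicate 1 held 8 Lef1 counts (4.22 CPM) and the other 2 libraries none. So the lowest 2i+LIF HP library lay above every other library of the series, the next highest being 5.84 CPM in CH+LIF HP replicate 1.
The other CH+LIF HP libraries had 4.29 and 0.762 CPM of Lef1 (9 counts and 1). In LIF HP, Lef1 had 3, 0 and 1 counts, and in CH+LIF LP 0, 0 and 3. No library of LIF LP held a Lef1 count. Below 2i+LIF HP, the order of the Lef1 group means was CH+LIF HP, 2i+LIF LP, 2i+LIF PO, LIF HP, CH+LIF LP and LIF LP, and each neighbouring pair in that order overlapped.

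Over summed counts, Lef1 in 2i+LIF HP was 14.0 times its share of gene counts in 2i+LIF LP (95% exact interval of counting error 8.27 to 25.6) and 9.61 times that in CH+LIF HP (5.97 to 16.3). Against LIF HP the ratio was 51.6 (19.8 to 191). The gap to LIF LP was at least 59.7-fold, taking 3 counts over that group. These intervals cover counting error only and leave out the spread between libraries.
In edgeR's quasi-likelihood test, the log2 fold change of Lef1 in 2i+LIF HP relative to 2i+LIF LP was 3.68 (SE 0.99, adjusted p = 0.0351), in a comparison where 3.67% of all 10643 tested genes passed. In LIF HP relative to 2i+LIF HP it was -5.23 (SE 1.15, edgeR adjusted p = 0.0114), where 3.78% of genes passed. Against 2i+LIF PO the log2 fold change of Lef1 in 2i+LIF HP was 4.97 (SE 1.07, edgeR adjusted p = 0.00431), where 10.6% of genes passed. In these 3 comparisons the libraries did not overlap, as in 16.8%, 28% and 26% of all tested genes. The difference between CH+LIF HP and 2i+LIF HP did not pass (log2 fold change -3.21, SE 0.96, edgeR adjusted p = 0.0936; 2.02% of genes passed), although the libraries did not overlap, as in 19.7% of genes. It passed under 5 alternatives: without PO replicate 1 (edgeR adjusted p of Lef1 0.0184), without 2i+LIF LP replicate 1 (0.0445), without both (0.00496), with no filter on low counts (0.00188) and in a fit of only these groups (0.00226).
Lef1 passed the filter on low counts through 4 libraries, 3 of them in 2i+LIF HP, so a gene with this pattern could enter the tests only by being high there. The call against 2i+LIF PO held under all 28 alternatives. Without PO replicate 1 the PO group had no Lef1 count, and the gap was then at least 90.1-fold over 3 counts. Without that library Lef1 was also called higher than PO in 2i+LIF LP and CH+LIF HP, which it was not with it (edgeR adjusted p 0.539 and 0.36). The call against 2i+LIF LP was lost without any 1 of the 2i+LIF LP libraries (edgeR adjusted p of Lef1 0.053, 0.0791 and 0.0897), without 2i+LIF HP replicate 2 (0.171) or 3 (0.0836) and in DESeq2 (0.127). The call between LIF HP and 2i+LIF HP was lost without LIF HP replicate 2 (edgeR adjusted p of Lef1 0.081) or 3 (0.051) or 2i+LIF HP replicate 2 (0.056).
At LP, the Lef1 values of LIF and 2i+LIF did not overlap either, as in 15.6% of genes. The lowest 2i+LIF LP library, at 3 counts (1.68 CPM), lay within what a count of 0 allows in LIF LP (1.56 to 2.31 CPM before scaling). This gap was therefore not resolved at this depth. At 0 against 15 counts in all, the difference did not pass (edgeR adjusted p = 0.245). With no filter on low counts it did (edgeR adjusted p of Lef1 0.0292).

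**Figure D1:**
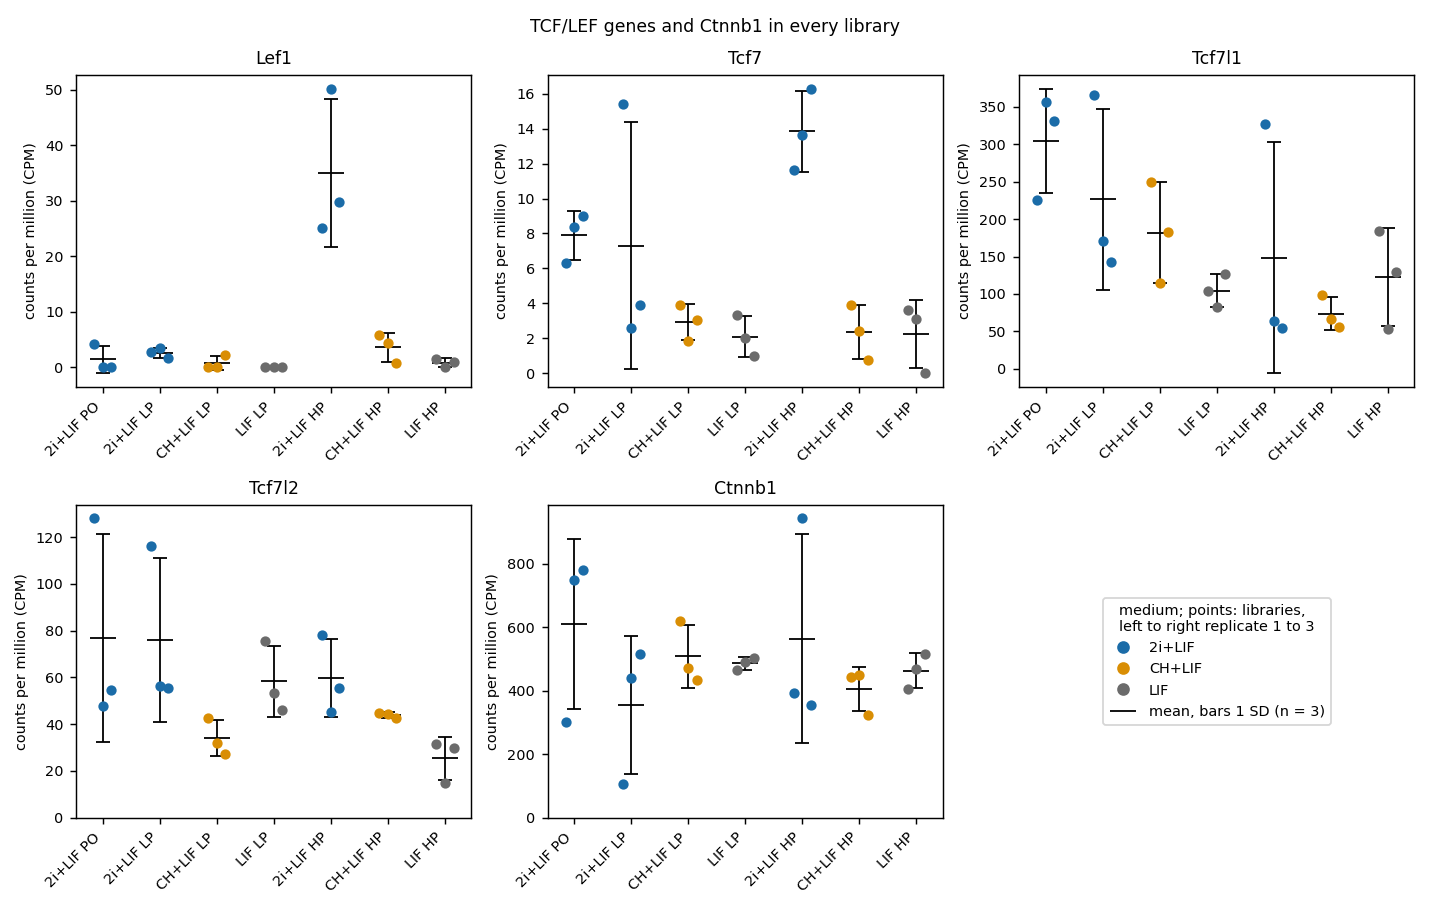
Level of each gene in CPM (vertical axis, linear, from 0 or just below) in every library of the 7 groups (horizontal axis). Points are libraries, coloured by medium, and black bars are the mean and 1 SD of 3. Lef1 lies at 25.1 to 50.1 CPM in 2i+LIF HP and at 5.84 CPM or less elsewhere, while Ctnnb1 overlaps between all neighbouring groups in order of their means.

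Tcf7 was the other factor with its highest mean in 2i+LIF HP. It had 11.6, 13.6 and 16.3 CPM there (25, 25 and 17 counts, mean 13.8 ± 2.34 SD, n = 3). In 2i+LIF PO it had 6.33, 8.37 and 8.97 CPM. Replicate 1 of 2i+LIF LP, the library rich in Gm42418, had 15.4 CPM, and the others 2.58 and 3.91 CPM. In the 4 groups named without PD, Tcf7 means were 2.91 ± 1.04 CPM in CH+LIF LP, 2.09 ± 1.17 in LIF LP, 2.35 ± 1.57 in CH+LIF HP and 2.23 ± 1.95 in LIF HP (SD, n = 3 each).
Tcf7 passed the filter on low counts through 6 libraries, 3 of them in 2i+LIF HP and none in those 4 groups. None of their 12 libraries had more than 8 Tcf7 counts, so their order could not be resolved at this depth. Of the neighbours in the order of Tcf7 means, only 2i+LIF HP and 2i+LIF PO did not overlap, as in 26% of genes, and that difference did not pass (log2 fold change of Tcf7 0.79, edgeR adjusted p = 0.483).
Tcf7 differed among the 3 media at HP in a joint edgeR test (adjusted p = 0.0397; 5.12% of genes passed). With each of the 21 libraries left out in turn, Tcf7 passed that test 13 times; it missed in 8, without any 2i+LIF HP or LIF HP library or CH+LIF HP replicate 2 or 3, with edgeR adjusted p up to 0.119. Each single comparison missed the threshold. The log2 fold change of Tcf7 from 2i+LIF HP was -2.49 in CH+LIF HP (SE 0.76, edgeR adjusted p = 0.102) and -2.45 in LIF HP (SE 0.77, edgeR adjusted p = 0.0695). Both passed without the 2 libraries unlike their replicates (edgeR adjusted p 0.0258 and 0.0169 for Tcf7), neither of which belongs to these groups, and both passed in DESeq2. Over summed counts, Tcf7 in 2i+LIF HP was 5.76 times its share in CH+LIF HP (3.09 to 11.7) and 6.51 times that in LIF HP (3.49 to 13.2; 95% exact intervals of counting error).

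Tcf7l1 had its highest mean in 2i+LIF PO. It had 226, 357 and 331 CPM there (mean 305 ± 69.6 SD, n = 3). At HP it had 98.6, 65.8 and 56.4 CPM in CH+LIF HP (mean 73.6 ± 22.2 SD), and no CH+LIF HP library reached the lowest PO library, as in 28.6% of genes whose libraries did not overlap. That difference passed the test, with a log2 fold change of -2.05 (SE 0.55, edgeR adjusted p = 0.0254), in a comparison where 5.82% of genes passed. The Tcf7l1 call was lost without PO replicate 2 or 3 or any 1 of the CH+LIF HP libraries (edgeR adjusted p 0.0606 to 0.122), with log2 fold changes of -2.31 to -1.89. As all PO libraries share a run, the run was not separated from this difference.
The other groups lay between. Tcf7l1 means were 226 ± 121 CPM in 2i+LIF LP, 182 ± 67.3 in CH+LIF LP, 104 ± 22.3 in LIF LP and 122 ± 65.7 in LIF HP (SD, n = 3 each). Every neighbouring pair in the order of Tcf7l1 means overlapped. LIF LP, at 104, 82.3 and 127 CPM, also lay wholly below PO, as in 31.7% of genes that did not overlap, with a log2 fold change of -1.55 (SE 0.54, edgeR adjusted p = 0.0589); 12% of genes passed in that comparison. This Tcf7l1 difference passed under 10 of the 28 alternatives, among them without either or both of the unlike libraries.
Within 2i+LIF HP, Tcf7l1 was split, at 327 CPM in replicate 1 against 64.3 and 54.6 CPM in replicates 2 and 3. With replicate 1 the log2 fold change of Tcf7l1 from 2i+LIF PO was -1.03 (edgeR adjusted p = 0.214), and without it -2.35 (edgeR adjusted p = 0.00398). The change from 2i+LIF LP likewise went from -0.60 (edgeR adjusted p = 0.617) to -1.92 (edgeR adjusted p = 0.0285). The same replicate 1 had the lowest Lef1 and Tcf7 of its group.

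Tcf7l2 was lowest in LIF HP. It had 31.4, 14.8 and 29.9 CPM in LIF HP (mean 25.4 ± 9.20 SD, n = 3) against 128, 47.6 and 54.6 CPM in 2i+LIF PO (mean 76.8 ± 44.7 SD). The log2 fold change was -1.59 (SE 0.42, edgeR adjusted p = 0.0144), where 12.3% of genes passed. All LIF HP libraries were lower in Tcf7l2 than every PO library, as in 32.5% of genes that did not overlap, but the high PO value was the library rich in mitochondrial counts. Without it the log2 fold change of Tcf7l2 was -1.04 and missed the threshold (edgeR adjusted p = 0.111). The call was also lost without LIF HP replicate 2 (0.101) and in a fit of only these groups (0.077).
At LP the lowest Tcf7l2 was in CH+LIF, at 42.6, 32.1 and 27.3 CPM (mean 34.0 ± 7.83 SD). LIF LP had 75.5, 53.1 and 46.2 CPM, 2i+LIF LP had 116, 56.4 and 55.4 CPM, and 2i+LIF HP had 78.1, 45.2 and 55.6 CPM. CH+LIF HP was tight, at 44.8, 44.4 and 42.6 CPM (mean 43.9 ± 1.12 SD).
Between these cultures no Tcf7l2 difference passed the test. The nearest were LIF HP against LIF LP (log2 fold change -1.20, SE 0.42, adjusted p = 0.0629 in edgeR) and LIF HP against 2i+LIF HP (-1.24, SE 0.42, edgeR adjusted p = 0.092). In both, the Tcf7l2 libraries did not overlap, as in 39.3% and 28% of all tested genes. Without these 2 unlike libraries, both passed for Tcf7l2 (edgeR adjusted p 0.00711 and 0.00878).
In the order of Tcf7l2 means, LIF LP and CH+LIF HP did not overlap, as in 23.2% of genes, a pair that was not tested. CH+LIF HP and CH+LIF LP did not overlap either, as in 15.1% of genes, but their nearest Tcf7l2 libraries both round to 42.6 CPM and the edgeR adjusted p was 1. The remaining neighbours overlapped.

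Ctnnb1 showed no difference between groups that passed any test. Its group means ran from 354 ± 218 CPM in 2i+LIF LP to 610 ± 269 CPM in 2i+LIF PO (SD, n = 3). The LIF cultures were even, at 464, 492 and 505 CPM in LIF LP and 405, 469 and 516 CPM in LIF HP. CH+LIF had 620, 471 and 434 CPM at LP and 442, 450 and 324 CPM at HP. The wide spreads came from single libraries of the 2i+LIF groups. Ctnnb1 was 300 CPM in PO replicate 1 against 750 and 779 CPM in the other PO libraries, and 106 CPM in 2i+LIF LP replicate 1 against 440 and 517 CPM.
Those are the same 2 libraries that stood apart by mitochondrial counts and Gm42418, and they also held the highest Tcf7l2 of the series, at 128 and 116 CPM; the part of library quality in these values was not tested. In 2i+LIF HP, Ctnnb1 was 944 CPM in replicate 2 and 394 and 354 CPM in the others.
The joint test over the 7 groups gave an edgeR adjusted p of 0.736 for Ctnnb1, and 0.288 without the 2 libraries. Its fitted log2 fold changes over the 15 comparisons ran from -0.78 to 0.67, with SEs of 0.45 to 0.46. The transcript level does not measure beta-catenin protein, which is the regulated quantity in the pathway.

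Over all 15 comparisons, of which 6 were between media at 1 passage label, 3 between passage labels in 1 medium and 6 with PO, 5 of 75 tests of these genes passed, 6.67%, where 5.03% of the tests of all genes did. These 5 are the Lef1, Tcf7l1 and Tcf7l2 calls given above. Of them 3 are Lef1 calls in comparisons with 2i+LIF HP, the group through which Lef1 passed the filter, and the other 4 genes gave 2 calls in 60 tests, so the share is not a result about the 5 genes together. Without these 2 unlike libraries, 15 of 75 passed, 20.0% against 9.4% of all gene tests, and the 15 included the 5. Among the 10 added were Tcf7 and Lef1 in CH+LIF HP and Tcf7 and Tcf7l2 in LIF HP, all lower relative to 2i+LIF HP. At an unadjusted p under 0.05, 21 of the 75 passed in edgeR, where 18.1% of the tests of all genes did, and DESeq2 called 9, 12.3% of its tests against 7.81%.
In 10 of the 15 comparisons none of the 5 genes passed. Among these, 9.96% of all genes passed in LIF HP against LIF LP, 12% in LIF LP against PO, 8.31% in CH+LIF LP against PO, 5.06% in 2i+LIF LP against PO and 2.02% between CH+LIF HP and 2i+LIF HP. The share of all genes was 1.47% or less in the other 5 comparisons, at 1.47% in LIF HP against CH+LIF HP, 0.489% and 0.047% in LIF LP against 2i+LIF LP and CH+LIF LP, 0.0094% between the CH+LIF groups and 0% for CH+LIF LP with 2i+LIF LP.
Near the threshold against PO was Tcf7l2 in CH+LIF LP (log2 fold change -1.16, edgeR adjusted p = 0.0728), whose libraries did not overlap, as in 27.4% of genes; it passed under 4 alternatives, among them without 2i+LIF LP replicate 1.
Any difference among the 7 groups was tested jointly in edgeR. Lef1 (adjusted p = 0.000136), Tcf7 (0.0243) and Tcf7l2 (0.0307) passed, as did 22.6% of all genes, and Tcf7l1 was at 0.0529. Among the 6 cultured groups, without PO in the hypothesis, Lef1 (edgeR adjusted p = 0.000222) and Tcf7 (0.0298) passed, against 13.1% of genes, while Tcf7l2 was at 0.0601 and Tcf7l1 at 0.215. Lef1 passed both tests with any 1 library left out. Among the 6 cultured groups Tcf7 missed in 6 of the 21 such fits (edgeR adjusted p 0.0513 to 0.0918), those without any 2i+LIF HP library, LIF LP replicate 2 or 3, or LIF HP replicate 2. Among the 7 groups Tcf7 missed without 2i+LIF HP replicate 2 or 3 (0.0572 and 0.0620), and Tcf7l2 without LIF HP replicate 2 or 3 (0.0856 and 0.0593). Among the 3 media at LP none of the 5 genes passed (smallest edgeR adjusted p = 0.404 for Lef1; 0.376% of all genes passed), and at an unadjusted p under 0.05 Lef1 and Tcf7l2 did. Among the 3 media at HP, Lef1 (edgeR adjusted p = 0.00725, and 0.0581 without 2i+LIF HP replicate 2) and Tcf7 passed. Both tests within a passage label were added after the data had been seen.
Whether the media effect differed between HP and LP was tested after the data had been seen. No such difference passed for any of the 5 genes, the smallest being Tcf7l2 in LIF against CH+LIF (log2 difference -1.57, SE 0.58, edgeR adjusted p = 0.293), where 0.423% of genes passed. In CH+LIF and in LIF against 2i+LIF, 0.0188% and 0.15% of genes passed. A change that passed at HP and not at LP was therefore not shown to differ between them.

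**Figure D2:**
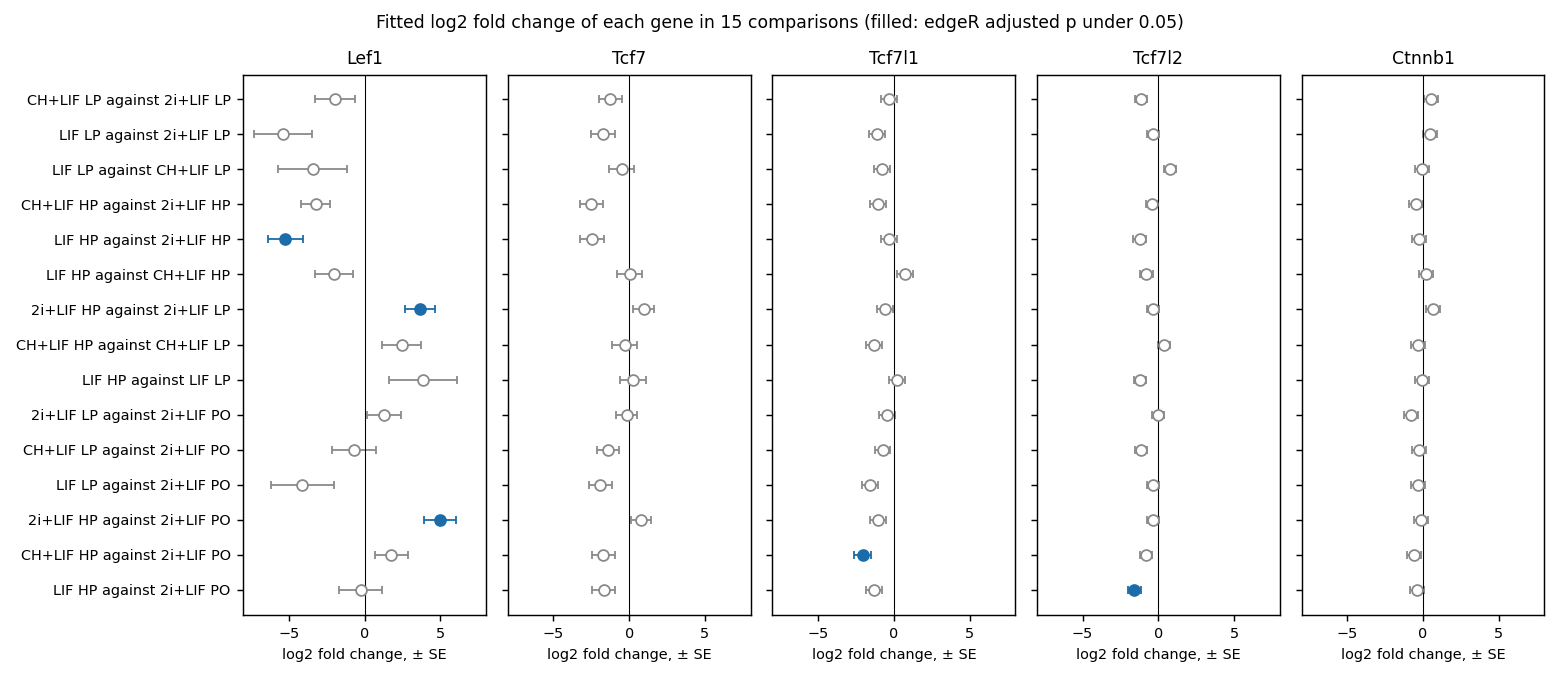
Fitted log2 fold change of each gene (horizontal axis, first group over second, bars ± 1 SE) in the 15 comparisons (vertical axis). Filled points passed an edgeR adjusted p of 0.05, and these are 3 for Lef1, 1 for Tcf7l1 and 1 for Tcf7l2; the Lef1 values against LIF LP rest on a group without a Lef1 count and depend on the prior count.

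The balance of the 4 TCF/LEF genes was expressed per kilobase of merged exon (2.625 kb for Tcf7, 3.924 for Tcf7l1, 8.775 for Tcf7l2 and 8.788 for Lef1), as shares of their summed CPM per kb. On this scale Tcf7l1 made up most of the total in 20 of the 21 libraries. Its share was 85.9% ± 8.05 in 2i+LIF PO, 83.2% ± 1.43 in 2i+LIF LP, 89.7% ± 2.31 in CH+LIF LP, 77.8% ± 6.51 in LIF LP, 74.4% ± 2.86 in CH+LIF HP and 87.7% ± 4.35 in LIF HP (SD, n = 3). In 2i+LIF HP it was 60.3% ± 20.4, with 83.7%, 50.5% and 46.6% in the 3 libraries.
Tcf7l2 came next by mean share in every group, with shares from 8.00% ± 2.56 in CH+LIF LP to 20.8% ± 4.60 in CH+LIF HP. In 2i+LIF HP, Tcf7 took 4.45%, 16.0% and 20.8%, and Lef1 took 2.87%, 17.6% and 11.3%. In the other 18 libraries the share of Lef1 per kb was at most 2.10% and that of Tcf7 at most 7.10%. In replicate 1 of 2i+LIF HP the shares of Tcf7l1, Tcf7l2 and Tcf7 lay within the range of those 18 libraries, and the Lef1 share lay above it.
As 1 number, log2 of Tcf7 plus Lef1 over Tcf7l1 plus Tcf7l2 (counts per kb, 0.5 added to each) was -3.64, -0.97 and -1.06 in 2i+LIF HP (mean -1.89 ± 1.52 SD, n = 3). In the other groups the mean ran from -5.27 ± 0.88 in LIF LP to -4.22 ± 0.76 in CH+LIF HP, with -4.72 ± 0.16 in PO and -4.57 ± 0.51 in 2i+LIF LP. The highest value outside 2i+LIF HP was -3.54, in LIF HP replicate 2, which lies above 2i+LIF HP replicate 1. The ratio was not tested, since the members were chosen with earlier results of these data known. In the counts, CPM hardly rose with exon length (Spearman's rho 0.040 over 10425 protein-coding genes, a description), so division by length may overcorrect. On undivided counts the mean in 2i+LIF HP was -1.82 and again the highest, and its lowest library, at -3.45, then lay above every library of the other groups, the highest of which was -3.79 in CH+LIF HP.

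**Figure D3:**
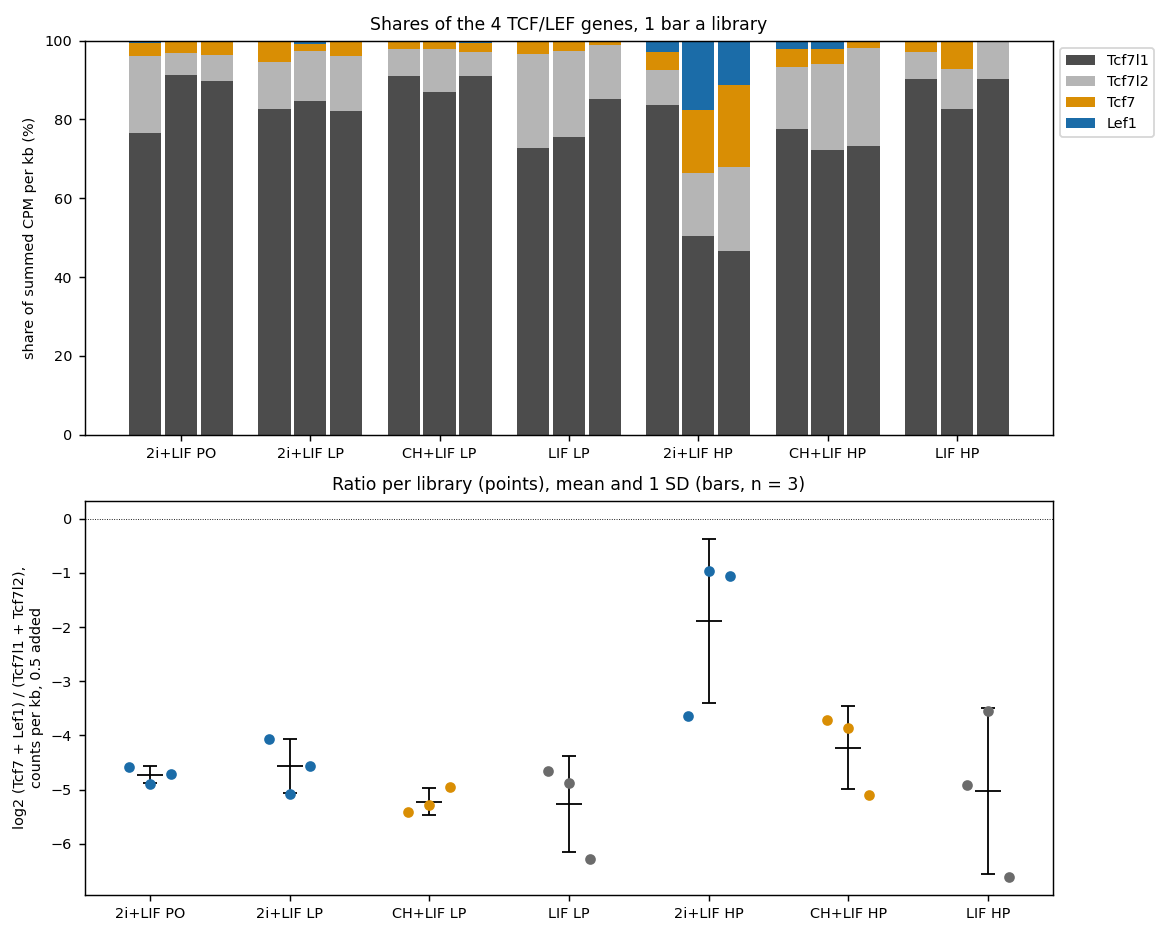
Upper panel: share of the summed CPM per kb (vertical axis, %, from 0 to 100) taken by each of the 4 TCF/LEF genes, with 1 bar a library in order of replicate within each group. Lower panel: log2 ratio of Tcf7 plus Lef1 to Tcf7l1 plus Tcf7l2 per kb, with points for libraries and bars for mean and 1 SD; 2 libraries of 2i+LIF HP lie near -1 and the third at -3.64, among the highest of the other groups.

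Known Wnt target genes were read beside the factors, from a list of 13 of which 10 passed the filter. Of these, T, Dkk1, Nkd1 and Cdx2 passed it only through the 3 libraries of 2i+LIF HP, so they could be called only as higher there, and their calls are given as a description. In 2i+LIF HP, 6 of the 10 were called higher relative to 2i+LIF LP and none lower, where 3.67% of all genes passed, and 2 of the 6 targets that the filter did not fix in this way were among them. The called genes of largest change were Dkk1 (a secreted Wnt antagonist), Cdx2, T (brachyury, a mesoderm factor) and Nkd1 (a feedback inhibitor acting on Dishevelled). Sp5 and Cdx1, both encoding transcription factors, were the 2 that also passed the filter through other groups. Notum and Znrf3 passed it through other groups too and were not called. Notum had a mean of 2.95 CPM in 2i+LIF HP against 0.947 in 2i+LIF LP, and its highest mean was 16.7 CPM in PO. Znrf3 had 7.80 ± 7.01 CPM in 2i+LIF HP against 5.96 ± 2.28 in 2i+LIF LP (SD, n = 3). Axin2, the classic feedback target, had 48.8, 73.6 and 53.7 CPM in 2i+LIF HP against 28.8, 14.2 and 1.68 CPM in 2i+LIF LP, and was not among the 6. Without 2i+LIF LP replicate 1, the library with the 28.8, the count was 3 (Sp5, Dkk1 and Axin2) where 3.69% of all genes passed. Cdx1, Cdx2, T and Nkd1 were then no longer called. The count also depended on other libraries of both groups. In 2i+LIF HP, dropping replicate 2 left 1, Sp5 (1.23% of all genes passed). Dropping replicate 3 there left 3 (1.53%), and dropping replicate 1 left 5 (4.42%). In 2i+LIF LP, dropping replicate 3 left 2, Dkk1 and Sp5 (3.17%), and dropping replicate 2 left 4 (2.55%). Sp5 kept this call in all 21 fits that left out 1 library.
Against 2i+LIF HP, 5 of the 10 targets were called lower in CH+LIF HP, where 2.02% of all genes passed, and 5 in LIF HP, where 3.78% passed, with none higher in either. Of the 6 targets that did not depend on 2i+LIF HP to pass the filter, Sp5 and Axin2 were called in CH+LIF HP, and Sp5, Axin2 and Ccnd1 (cyclin D1) in LIF HP. Sp5 had 135, 494 and 455 CPM in 2i+LIF HP against 46.7, 33.4 and 17.5 CPM under CH+LIF HP and 19.6, 30.2 and 23.7 CPM under LIF HP. Its log2 fold change was -3.46 in CH+LIF HP (SE 0.68, edgeR adjusted p = 0.00494) and -3.88 in LIF HP (SE 0.70, edgeR adjusted p = 0.00174). Axin2 was lower in both as well, at a mean of 5.53 CPM in CH+LIF HP (edgeR adjusted p = 0.0137) and 9.06 in LIF HP (edgeR adjusted p = 0.0399) against 58.7. The remaining calls were Dkk1 and T in both comparisons and Cdx2 in CH+LIF HP, 3 of the genes whose direction the filter fixed. With each library left out in turn, Sp5 and Ccnd1 kept these calls in all 21 fits. Axin2 lost its call in CH+LIF HP without 2i+LIF HP replicate 2 or any CH+LIF HP library (edgeR adjusted p up to 0.106), and in LIF HP without any library of the 2 groups compared (up to 0.155). T was the least stable, with its CH+LIF HP call in 5 of the 21 fits and its LIF HP call in 11. Leaving out 2i+LIF LP replicate 1 raised the 5 targets called lower in CH+LIF HP to 8 (3.26% of all genes passed). Without any 1 CH+LIF HP library they fell to 2, Dkk1 and Sp5 (0.998% to 1.27% of all genes). Without 2i+LIF HP replicate 1 or 2 they fell to 3 (1.93% and 0.898%). In LIF HP the 5 fell to 2, Ccnd1 and Sp5, without 2i+LIF HP replicate 2 (1.54% of all genes). Without any other LIF HP or 2i+LIF HP library they fell to 3 (1.11% to 2.66%).
At LP, Sp5 (0.367 against 29.8 CPM, edgeR adjusted p = 0.00494) and Axin2 (0.763 against 14.9 CPM, edgeR adjusted p = 0.048) were lower in LIF than in 2i+LIF; 0.489% of all genes passed in that comparison. The 2i+LIF mean rested in part on replicate 1, with 62.4 CPM of Sp5 against 18.5 and 8.39 in the other 2 libraries, and 28.8 CPM of Axin2 as given above. Without it, Sp5 in 2i+LIF LP had a mean of 13.5 CPM and was still called (edgeR adjusted p = 0.0319; 0.208% of genes passed). Axin2 had 7.94 CPM and was not called (edgeR adjusted p = 0.209), and it kept its call in 5 of the 21 fits that left out 1 library. Sp5 lost its call without LIF LP replicate 2 or 3 (up to 0.0596). Both, with Cdx1, were higher in LIF HP than in LIF LP, where 9.96% of genes passed; there Sp5 and Cdx1 kept their calls in all 21 fits, and Axin2 lost its own without any library of these 2 groups (up to 0.130). These fits for the list genes and for the media at HP were chosen after the data had been seen.

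**Figure D4:**
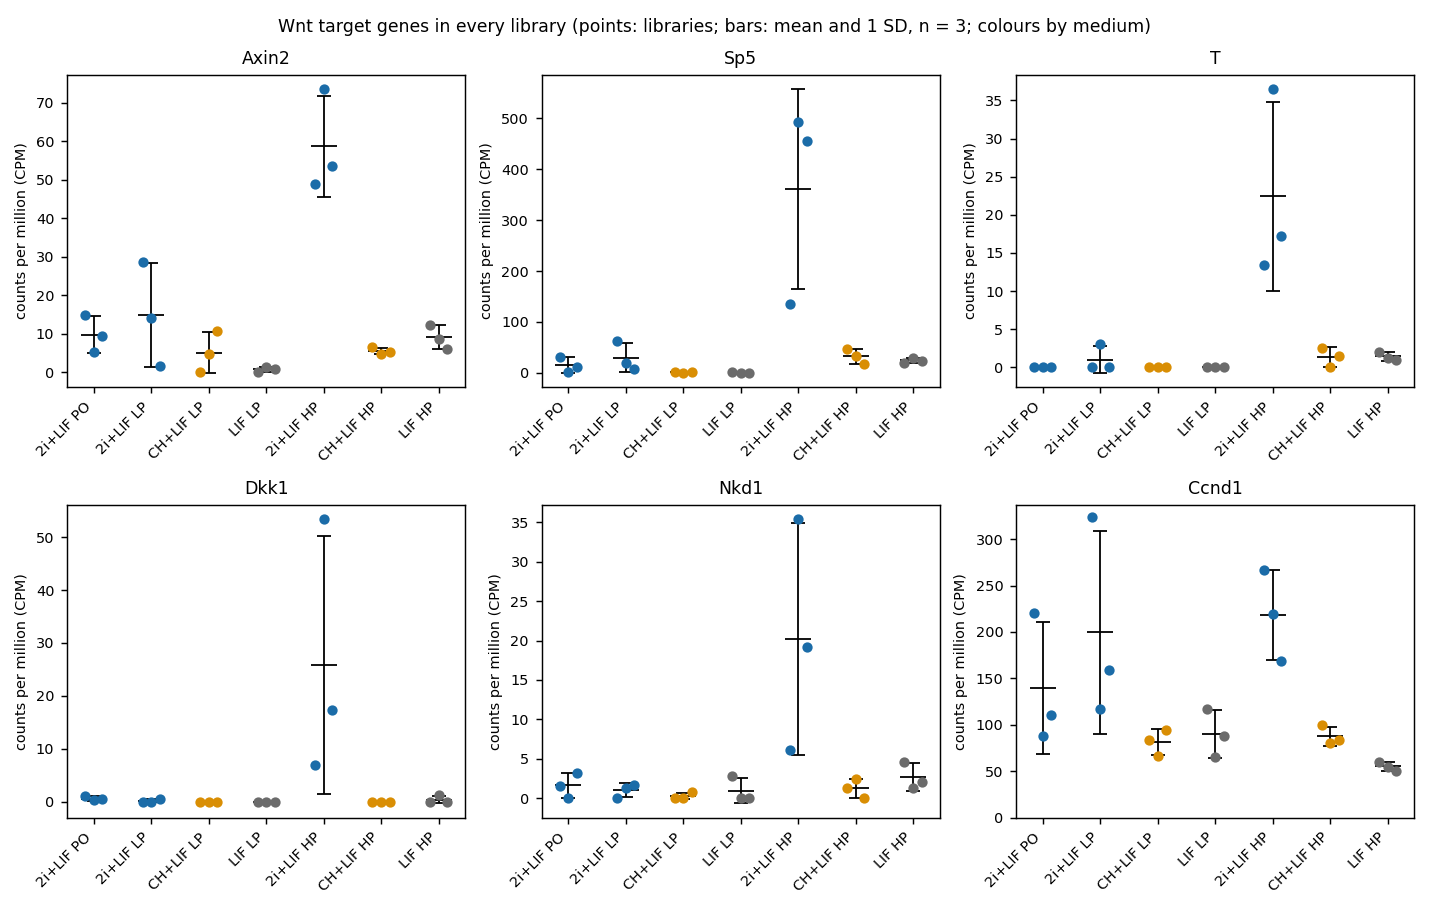
CPM (vertical axis, linear) of 6 Wnt target genes in every library of the 7 groups, with points for libraries coloured by medium and bars for the mean and 1 SD of 3. For Axin2, Sp5, T, Dkk1 and Nkd1 the 2i+LIF HP libraries are the highest of the series; Ccnd1 is also high in some 2i+LIF PO and LP libraries.

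Of 10 destruction complex genes, 9 were tested, and in comparisons between cultured groups Axin2 was the sole gene of the list that passed, in 4 comparisons where 0.489% to 9.96% of all genes passed. Gsk3b and Gsk3a both encode forms of GSK3. Gsk3b had a mean of 203 ± 60.4 CPM for 2i+LIF HP, 131 ± 11.6 for CH+LIF HP and 164 ± 61.3 for LIF HP (SD, n = 3). Gsk3a had 39.6 ± 6.66, 21.3 ± 11.6 and 25.9 ± 7.04 CPM in the same groups. Of the 4 junction partners of beta-catenin (Cdh1, Ctnna1, Ctnnd1 and Jup), none passed between cultured groups. Against PO, Ctnnd1 was lower in all 6 cultured groups, Jup in 5, Cdh1 in 3 and Ctnna1 in none, in comparisons where 5.06% to 12.3% of all genes passed and which the run also separates.
Of 13 nuclear cofactors tested out of 15, Bcl9l, a cofactor of beta-catenin, had 12.5 CPM in CH+LIF HP against 67.1 CPM in 2i+LIF HP (edgeR adjusted p = 0.0381, log2 fold change -2.43), where 2.02% of all genes passed. In LIF HP against LIF LP, where 9.96% of all genes passed, 3 of the 13 were lower: Tle4, a Groucho corepressor (77.8 against 309 CPM), Ctbp2, another corepressor (92.6 against 232 CPM), and Ep300, a histone acetyltransferase (68.0 against 146.6 CPM). The median of the 13 was -0.19 in the first comparison and 0.05 in the second, opposite in sign to the 3 calls, against -0.01 and 0.01 over all genes.
Of 15 receptors and transducers tested out of 17, the Frizzled receptor genes Fzd5 (15.5 against 76.2 CPM, edgeR adjusted p = 0.000853) and Fzd7 (5.19 against 37.0 CPM, edgeR adjusted p = 0.0153) were lower in 2i+LIF HP relative to 2i+LIF LP, where 3.67% of all genes passed. Fzd5 was higher in CH+LIF HP relative to 2i+LIF HP (60.1 against 15.5 CPM, edgeR adjusted p = 0.00494). Fzd5 and Fzd3 were lower in LIF HP relative to LIF LP (edgeR adjusted p 0.0111 and 0.0124), 2 of 15 where 9.96% of all genes passed.
The 5 pluripotency genes known to be repressed by TCF7L1 (Nanog, Esrrb, Klf2, Tfcp2l1 and Nr5a2) did not pass between any cultured groups. Against PO none was higher, and 1 of the 5 was lower in 2i+LIF LP, 4 in CH+LIF LP and 4 in LIF LP, where 5.06%, 8.31% and 12% of all genes passed. At HP, 4 were lower in 2i+LIF, 2 in CH+LIF and 2 in LIF, where 10.6%, 5.82% and 12.3% passed, and over the 6 comparisons the log2 fold changes had list medians from -1.37 to -0.75 against -0.10 to -0.05 over all genes. Tcf7l1 itself had its highest mean in PO, as did 4 of the 5, among them Tfcp2l1 (1009 ± 415 CPM) and Nanog (449 ± 136 CPM). Klf2 did not, with 481 CPM in PO against 562 in CH+LIF LP and 595 in LIF HP.

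Some marker levels also differed in 2i+LIF HP. The summed level of 8 embryonic stem cell markers was 1023 to 1414 CPM in 2i+LIF HP and at least 1748 CPM in every other library. Against 2i+LIF LP, 1 of the 8 was called lower (3.67% of all genes were called in either direction) and none higher, and the list's median log2 fold change was -0.19 beside 0.01 over all genes. Between the means of these 2 groups, the difference in the sum lay mainly in Tdgf1 and Sox2. The marker called lower in 2i+LIF HP relative to 2i+LIF LP, CH+LIF HP and LIF HP alike was Tdgf1, a Nodal coreceptor gene, with 36.5 ± 27.7 CPM in 2i+LIF HP against 375 to 549 CPM in the means of the other groups. Sox2 had 410 ± 26.4 CPM in 2i+LIF HP against 870 ± 472 in 2i+LIF LP (SD, n = 3) and was not called. Its mean was 408 CPM in LIF HP and 499 CPM in PO. The means in 2i+LIF HP and 2i+LIF LP were 169 and 143.8 CPM for Nanog, 43.7 and 91.2 for Zfp42, 40.5 and 41.5 for Pou5f1, 36.3 and 36.4 for Dppa5a, and 317 and 334 for Klf4. The 5 mesendoderm markers summed to 24.9 to 55.1 CPM in 2i+LIF HP, with counts for all 5, against at most 35.1 CPM elsewhere. Of the 2 that passed the filter, T, which is also a Wnt target and passed only through 2i+LIF HP, was the called gene, at a mean of 22.4 CPM. The other, Eomes, had 5.95 CPM in 2i+LIF HP against 18.6 in 2i+LIF LP and 14.2 in PO. The 7 primitive endoderm markers summed to 4.18 to 24.5 CPM in 2i+LIF HP, with 2 of 7 at 0, and to at most 8.39 CPM elsewhere, and none passed the filter.
The 4 neural markers summed to 34.5 to 156.2 CPM in 2i+LIF HP and to 189 to 208 CPM in LIF LP, their highest group by median. In 2i+LIF HP, 1 of the 4 was called lower relative to 2i+LIF LP and none higher, where 3.67% of all genes passed. The list's median log2 fold change there was -0.93, beside 0.01 over all genes. Fibroblast markers summed to 2.88 to 10.4 CPM in 2i+LIF HP, with 1 of 4 at 0, and to at most 36.4 CPM elsewhere. Formative and primed markers, a list that holds Lef1 itself, summed to 47.9 to 77.4 CPM in 2i+LIF HP, and Otx2 was lower there relative to CH+LIF HP (2.04 against 20.1 CPM, edgeR adjusted p = 0.0166). The part of any other cell type in the Lef1 and Tcf7 levels was not tested.

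The genes whose log2 CPM followed each member most closely over the 21 libraries were found among 10516 genes, as a description; libraries of a group share their culture and depth. Lef1 was most like Phldb2 (Pearson's r = 0.91), Mcc (0.89) and Pdzrn4 (0.88), each with its highest mean in 2i+LIF HP: 126, 18.5 and 93.0 CPM. For Tcf7 they were Pramel6 (0.89), with 93.6 CPM in 2i+LIF HP and at most 11.7 CPM in the other group means, Zbtb40 (0.82) and Nr1d1 (0.81). Tcf7l1 was followed by Kif13a (0.86), Khsrp (0.82) and 2610507B11Rik (0.82), all highest in PO.
Tcf7l2 was followed more tightly, by Ash1l (0.94), Sltm (0.91) and Smg1 (0.91), all lowest in LIF HP. Ctnnb1 was followed by Rad1, Naa50 and Chtop (0.91 each). Among the 5 genes themselves, the closest pair was Lef1 and Tcf7 (r = 0.57), and the most opposed was Ctnnb1 and Tcf7l2 (r = -0.44); both Ctnnb1 lows and both Tcf7l2 highs lay in the 2 libraries unlike their replicates.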

How the data were processed

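The deposited files hold 1 table of counts per library, which the authors made with bcl2fastq, STAR 2.6.0a and HTSeq on mm10, per the submitters' processing notes. The annotation release, strand setting and library type (whole transcript or 3′ end) are not given in the sources used here; per the labels' protocols, libraries were made from 125 ng of total RNA. HTSeq's 5 closing entries, which name no gene, were left out. They left 47.4% to 62.0% of each library's total as gene counts, with 20.8% to 35.4% not unique. Genes were named through GENCODE M21.

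Counts were filtered with filterByExpr (minimum count 10), scaled by TMM and fitted in edgeR 4.0.16 with 1 coefficient per group over all 21 libraries. This left 10643 genes and 14 residual degrees of freedom. P-values were adjusted by Benjamini-Hochberg over all genes within a comparison, with a threshold of 0.05, and the SE is the log2 fold change over the root of F. The script was tested on simulated counts. DESeq2 1.42.0 and the other alternatives are in the closing section. Replicate numbers are shared between groups: same-numbered libraries deviated together (every r over 0.1) only between the LP and PO groups of 2i+LIF (r = 0.40, 0.34 and 0.18), where the block gave no call among the 5 genes. All replicate pairs differed beyond sampling noise (lowest chi-square per degree of freedom 4.82).

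The members and gene lists were chosen with earlier results of these data known. The text names all 5 members and per member the 3 most correlated genes. From each list it names at most the 4 called genes of largest change per comparison of media or of HP with LP. Gsk3a, Gsk3b, the further Wnt targets and the marker and PO values were chosen after they were seen. Promoter windows are from RefSeq. Precision follows depth: intervals and floors cover counting error only.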

Additional observations from a re-analysis of the deposited data

How the results depend on the processing

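Of the 5 calls among 75 tests, 1 (Lef1 in 2i+LIF HP against PO) held under all 28 alternatives, and none of the 5 changed direction. Of the 70 tests not called, 14 were called under at least 1 alternative. The 5 calls are 6.67% of tests, with 5.03% over all genes; 3 are Lef1 calls with 2i+LIF HP. The count was 9 with no filter on low counts (12.0% against 3.95%), 9 in fits of only the groups compared (57 tests, 15.8% against 5.26%) and 9 in DESeq2 (73 tests with an adjusted p, 12.3% against 7.81%). It was 15 without both libraries unlike their replicates (20.0% against 9.4%), and ran from 3 to 11 when each library was left out. The lowest was without LIF HP replicate 2 (4.0% against 3.53%), and the highest without 2i+LIF LP replicate 1 (11, 14.7% against 7.29%), 2i+LIF PO replicate 1 (10, 13.3% against 5.8%) and 2i+LIF HP replicate 1 (9, 12.0% against 5.09%). With the replicate block it was 12 (16.0% against 5.72%); beyond 2i+LIF LP against PO the numbers do not pair the samples. DESeq2 size factors, and removal of mitochondrial genes and Gm42418, each left the count at 5 (5.12% and 5.07% over all genes).

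Members differing among the 7 groups numbered 3, and 2 to 4 with a library left out; the block gave 4. Among the 6 cultured groups the number was 2, with 4 under no filter on low counts, 3 under the block and 1 to 3 with a library left out; 1, Lef1 with Tcf7 lost, came without LIF LP replicate 2 or 3, 2i+LIF HP replicate 2 or 3, or LIF HP replicate 2. The causes were not tested.

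The log2 balance ratio ranged, with 1 library left out, from -4.80 to -4.64 in 2i+LIF PO, -4.82 to -4.31 in 2i+LIF LP, -5.36 to -5.12 in CH+LIF LP, -5.58 to -4.77 in LIF LP, -2.35 to -1.01 in 2i+LIF HP, -4.48 to -3.79 in CH+LIF HP and -5.76 to -4.23 in LIF HP. Counts not divided by length moved it by more than 1 SD in 2i+LIF PO, to -5.31, and in CH+LIF LP, to -5.70. Adding 1 count in place of 0.5 moved no group by more than 1 SD. Depth limits Lef1 and Tcf7 most: outside 2i+LIF HP no library held more than 9 Lef1 counts.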
